A study of Mus musculus with 12 samples.

Results

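The ATP-binding cassette (ABC) superfamily was examined in primary cultured mouse hepatocytes exposed to benzbromarone (BBR, a uric acid-lowering drug that blocks urate reabsorption in the kidney) and oleic acid (OA, the monounsaturated fatty acid used to make cultured liver cells steatotic). Members were all features whose gene symbol is Abc, a family letter from a to g, a number and an optional final letter, and 50 of the 22471 features in the deposited tables met this rule. RNA sequencing had been carried out on 12 libraries, 3 in each of 4 groups labelled Con, ConOA, BBR and BBROA: control, OA alone, BBR alone, and BBR with OA. Male C57BL/6J mice aged 6 weeks were the source of the hepatocytes, isolated by collagenase perfusion through the portal vein, and exposures were 15 µM BBR for 16 h with or without 0.2 mM OA that had been preincubated with bovine serum albumin. The labels name liver as the tissue and call the replicates biological, but whether they were separate mice or separate cultures of 1 preparation is not given in the sources used here, so p-values measure the spread between these libraries.

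ABC proteins bind and hydrolyse ATP, and most of them use that energy to carry a substrate across a membrane. In hepatocytes, pumps of families B, C and G in the canalicular membrane secrete bile salts, phospholipid, sterols, bilirubin conjugates and drugs into bile, whereas relatives in the basolateral membrane return organic anions to blood. Family A members move lipids, family D members bring fatty acyl-CoA esters into peroxisomes, and families E and F lack membrane domains and act on ribosomes. Nuclear receptors control many of the genes, among them the bile acid receptor FXR (Nr1h4) for Abcb11 and Abcb4, liver X receptors for Abca1, Abcg1, Abcg5 and Abcg8, and PPAR alpha for Abcb4, Abcd2 and Abcd3.

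Total counts ranged from 15485508 to 23668379 per library, and levels are given as CPM, the count relative to library size after TMM scaling over the 12 libraries. A gene with no count in a library could still have had up to 3 counts, or 0.127 to 0.194 CPM, by counting error alone. All 6 hepatocyte markers examined, among them Alb and Ttr, were detected. They summed to 29374 to 30828 CPM in Con, 34540 to 36100 in ConOA, 31048 to 32889 in BBR and 35519 to 37685 in BBROA. BBR alone raised Ttr and Cyp2e1 and lowered Tat and Hnf4a, and OA alone raised Alb, Ttr, Apoa1 and Tat. With OA on top of BBR, Alb, Apoa1 and Tat rose and Cyp2e1 fell. Markers of other liver cells were also present. The sum of 9 Kupffer cell markers was 136 to 178 CPM in the BBR libraries and 95.3 to 115 CPM in the other groups, and 7 endothelial markers summed to 53.6 to 69.3 CPM. Sums of 8 stellate cell and fibroblast markers were 23.2 to 30.3 CPM. The 5 cholangiocyte markers summed to 592 to 720 CPM in Con, 243 to 273 CPM in ConOA, 390 to 422 CPM in BBR and 199 to 240 CPM in BBROA, with Krt7 at 0 in every Con library. The cholangiocyte sum was carried by Spp1, which fell with BBR alone (log2 fold change -0.83) and with OA alone (-1.58), while Krt19, Sox9 and Epcam rose with BBR alone. Of the 9 Kupffer cell markers, Cd68 rose and Cd5l fell with BBR alone. With OA alone the sum hid opposite changes in 8 of the 9, since Adgre1 and Marco rose and Clec4f, Vsig4, Cd5l, C1qa, C1qb and C1qc fell (log2 -1.28 to 2.51). The endothelial markers Pecam1, Cdh5 and Kdr rose with BBR alone. Stab2, Lyve1, Clec4g and Eng did not pass, and the median log2 fold change of the 7 was -0.046 (lowest -0.81). With OA on top of BBR, Pecam1, Cdh5 and Kdr fell while Stab2 and Lyve1 rose. These markers moved with the groups, and their part in the differences below was not tested. No replicate pair looked like 1 library deposited again, since chi-square values over genes were 2.77 to 7.61 per degree of freedom.

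Of the 50 members, 45 had a count in at least 1 library, and Abca12, Abca13, Abca15, Abca16 and Abcb5 had none in any. After the filter on low counts, 39 members were tested in at least 1 comparison and 38 in all 4 group comparisons. The 11 members tested in none were the 5 without counts and Abca9, Abca14, Abca17, Abcc8, Abcg3 and Abcg4, which did not exceed 0.601 CPM in any library. Levels between genes were compared on the deposited FPKM scale, which divides by transcript length. Abcc3, the basolateral exporter of glucuronide conjugates, had the highest level in every group, at 116 ± 4.26 FPKM in Con, 85.1 ± 4.08 in ConOA, 123 ± 2.18 in BBR and 88.3 ± 2.05 in BBROA (mean ± SD, n = 3). The phospholipid floppase Abcb4 ranked next in Con at 63.6 ± 3.33 FPKM, and its range of 60.0 to 66.6 FPKM over the libraries lay above that of Abce1, a ribosome recycling factor, at 53.5 ± 1.63 FPKM. The bile salt export pump Abcb11 was low in these cultured cells, at 2.92 FPKM in Con. Summed over the superfamily, CPM values were 2600 to 2640 in Con, 2132 to 2232 in ConOA, 2388 to 2510 in BBR and 2267 to 2353 in BBROA, and no group overlapped another. These sums are weighted to a few abundant members and do not describe the superfamily as a whole. On the FPKM scale the 3 highest members held 36.9% to 41.2% of the total in each library.

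Differences were tested with edgeR's quasi-likelihood F test, and adjusted p stands for the Benjamini-Hochberg value over all genes tested. OA changed the most members. In ConOA against Con, 24 of 38 tested members (63.2%) passed an adjusted p of 0.05, 7 higher and 17 lower, beside 42.8% of all genes, 21.3% higher and 21.5% lower (2643 higher and 2669 lower, or 2077 and 3216 under upper quartile scaling). In BBROA against BBR, 20 of 39 (51.3%) passed, 9 higher and 11 lower, beside 38.9% of all genes, 20.1% higher and 18.8% lower (2496 higher and 2330 lower, or 1976 and 2870 under upper quartile scaling). The 20 include Abcd2, which passed the filter on low counts only through the BBR libraries, where it was high, and did not pass with DESeq2. These comparisons share no library, and 16 of the 38 members tested in both (42.1%) passed in the same direction, beside 24.2% of all genes, with Abcg2 alone passing in opposite directions, beside 1.31% of all genes. In bulk samples, fewer cells of a type and less RNA per cell cannot be told apart.

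BBR changed fewer members. In BBR against Con, 15 of 39 (38.5%) passed, 2 higher and 13 lower, beside 27.7% of all genes, 13.2% higher and 14.5% lower. The median log2 fold change of the tested members was -0.11, against -0.00085 over all 12555 genes. In BBROA against ConOA, 5 of 38 (13.2%) passed, all 5 higher, beside 4.59% of all genes, 1.95% higher and 2.63% lower. This count fell to 2 without ConOA replicate 2, BBROA replicate 1 or BBROA replicate 3, and to 1 without BBROA replicate 2. The count over all genes fell as well, from 563 to 249, 373, 216 and 230 without these libraries in the order named. In all, 28 of 39 members (71.8%, Abcd2 included) passed in at least 1 of the 4 comparisons, beside 60.7% of all genes, and 11 tested members in none. Each group serves in 2 of the 4 comparisons, so a shared group links BBR against Con with ConOA against Con, and likewise the other neighbours.

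**Figure D1:**
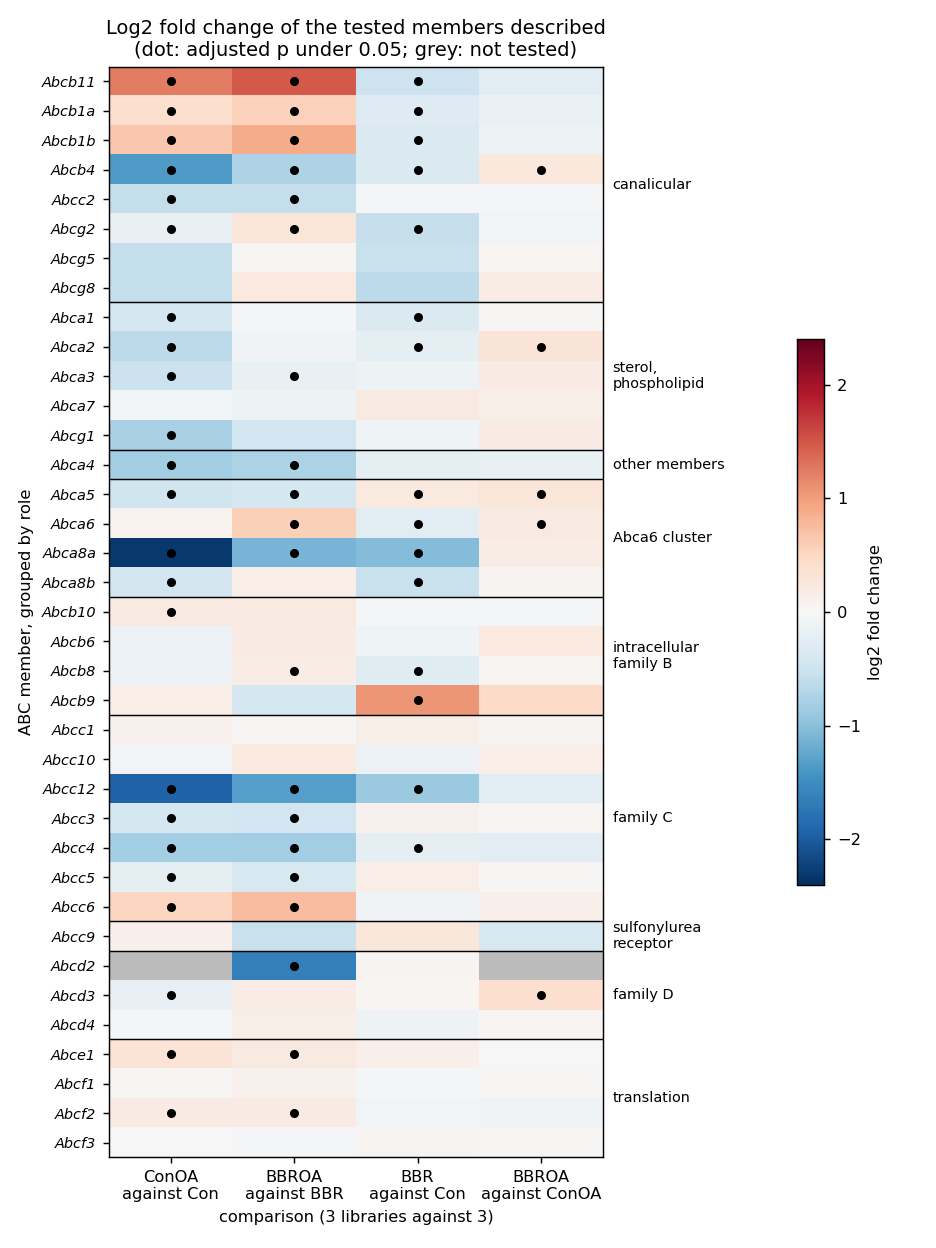
Log2 fold change of the tested ABC members described in the text (rows, grouped by role) in the 4 comparisons of 3 libraries against 3 (columns), on a colour scale from blue (lower) to red (higher). Dots mark an adjusted p under 0.05, and grey cells mark Abcd2 where it was not tested, its remaining dot resting on a pass of the filter through BBR alone. The OA columns hold the most dots, and BBROA against ConOA holds 5, all on higher values.

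The canalicular efflux pumps were examined first. Of 8 members, all tested, OA without BBR raised 3 and lowered 3, OA on top of BBR raised 4 and lowered 2, BBR alone lowered 5, and BBR on top of OA raised 1. Over all genes 42.8%, 38.9%, 27.7% and 4.59% passed in these comparisons, in that order. The same shares stand beside the counts of each list below. The upstream sequences of 4 pumps with different patterns are shown because FXR, PPAR and liver X receptors bind repeats of the hexamer AGGTCA. Capitals mark this hexamer or its reverse complement in the 250 bases before the RefSeq start (build GRCm38.p6, written 5′ to 3′ on the gene's strand). The windows are chr2:69342617-69342866 on the minus strand for Abcb11, chr5:8893471-8893720 on the plus strand for Abcb4, chr19:43782058-43782307 on the plus strand for Abcc2, and chr6:58584283-58584532 on the plus strand for the most upstream of 3 Abcg2 starts.
Abcb11: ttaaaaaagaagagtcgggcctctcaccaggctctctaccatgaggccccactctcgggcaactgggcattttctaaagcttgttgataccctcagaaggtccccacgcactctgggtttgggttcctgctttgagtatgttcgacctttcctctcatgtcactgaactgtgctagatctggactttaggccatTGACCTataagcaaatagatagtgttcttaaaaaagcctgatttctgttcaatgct
Abcb4: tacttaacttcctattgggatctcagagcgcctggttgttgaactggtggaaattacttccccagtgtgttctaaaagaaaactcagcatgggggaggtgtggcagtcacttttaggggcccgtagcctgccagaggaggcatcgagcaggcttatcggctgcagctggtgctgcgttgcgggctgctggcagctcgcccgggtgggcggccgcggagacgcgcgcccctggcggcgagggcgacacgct
Abcc2: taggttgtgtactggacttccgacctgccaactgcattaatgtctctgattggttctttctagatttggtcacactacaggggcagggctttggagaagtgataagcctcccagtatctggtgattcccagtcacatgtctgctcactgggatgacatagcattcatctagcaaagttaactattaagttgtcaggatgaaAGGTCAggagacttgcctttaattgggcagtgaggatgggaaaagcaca
Abcg2: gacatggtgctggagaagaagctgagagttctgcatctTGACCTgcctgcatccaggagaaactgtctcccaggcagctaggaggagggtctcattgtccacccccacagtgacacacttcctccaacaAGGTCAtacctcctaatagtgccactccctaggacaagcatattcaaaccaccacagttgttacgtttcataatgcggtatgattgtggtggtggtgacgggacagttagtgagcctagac
The hexamer lies at -56 to -51 in Abcb11 (reverse strand), at -49 to -44 in Abcc2, and at -212 to -207 (reverse) and -121 to -116 in Abcg2, and it is not in the Abcb4 window. RefSeq promoters were matched for 38 of the 50 members, in 45 windows. On either strand, 7 of these 45 windows of 300 bases (15.6%) held the hexamer, against 16.3% of 32851 promoter windows. Exact direct repeats spaced by 1 or 4 bases and the inverted repeat spaced by 1 base were in 0 of the 45, and in 0.0396%, 0.0152% and 0.00913% of all windows. At such shares 0 is the likely outcome for any 45 windows, so this search cannot set the members apart from other genes. Inexact repeats were not searched. In the Abcb11 window the marked TGACCT follows aggcca and 1 base, an inverted repeat with 1 mismatch to the hexamer. The share of such inexact repeats in other members or other promoters was not taken, so this repeat does not set Abcb11 apart.

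Abcb11, the bile salt export pump, was higher with OA and lower with BBR alone. Its levels were 15.7, 13.8 and 12.7 CPM in Con, 36.8, 35.7 and 25.8 CPM in ConOA, 11.1, 10.6 and 8.002 CPM in BBR, and 29.0, 26.9 and 26.8 CPM in BBROA. Every library with OA lay above every library without it. OA raised Abcb11 2.33-fold without BBR (log2 fold change 1.22 ± 0.12 SE, adjusted p = 1.95e-06) and 2.77-fold with BBR (log2 1.47 ± 0.10, adjusted p = 6.23e-08). BBR lowered it without OA (log2 fold change -0.50 ± 0.12, adjusted p = 0.00509), and the groups did not overlap. With OA present, the BBR difference was -0.25 on the log2 scale (95% interval -0.47 to -0.02, adjusted p = 0.219) and the groups overlapped.

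Abcb4, which flips phosphatidylcholine into the canalicular leaflet for secretion into bile, moved the other way under OA. Its levels were 249, 238 and 265 CPM in Con, 101, 88.2 and 104 CPM in ConOA, 216, 173 and 199 CPM in BBR, and 116, 114 and 121 CPM in BBROA. No group overlapped another. OA lowered Abcb4 2.56-fold without BBR (log2 fold change -1.35 ± 0.06, adjusted p = 2.41e-09) and 1.68-fold with BBR (log2 -0.75 ± 0.06, adjusted p = 5.54e-07). BBR lowered it without OA (log2 -0.35 ± 0.07, adjusted p = 0.000817) and raised it with OA (log2 0.26 ± 0.06, adjusted p = 0.027). The rise with OA did not pass without ConOA replicate 2 or without any of the 3 BBROA libraries, where the log2 fold change was 0.19 to 0.28 and adjusted p 0.0636 to 0.129. The difference between the BBR effects, the interaction, was 0.61 ± 0.10 on the log2 scale (adjusted p = 0.000436).

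Abcc2, the pump for bilirubin glucuronides and other organic anion conjugates, fell with OA in both backgrounds. Its levels were 245, 266 and 253 CPM in Con, 164, 184 and 165 CPM in ConOA, 246, 253 and 248 CPM in BBR, and 152, 187 and 166 CPM in BBROA. The log2 fold changes were -0.57 ± 0.05 (adjusted p = 1.6e-06) without BBR and -0.57 ± 0.06 (adjusted p = 4.75e-06) with it. BBR differences were -0.03 in both backgrounds, with 95% intervals of -0.12 to 0.07 without OA and -0.18 to 0.12 with OA, and the interaction was 0.01 (95% interval -0.18 to 0.20).

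Abcg2, which exports urate, sulfated conjugates and many drugs, fell with BBR alone. Its levels were 83.4, 79.0 and 83.4 CPM in Con, 71.5, 67.7 and 76.5 CPM in ConOA, 57.5, 51.1 and 57.5 CPM in BBR, and 69.2, 67.5 and 68.5 CPM in BBROA. The BBR libraries were the lowest of all 12. BBR lowered Abcg2 1.47-fold without OA (log2 fold change -0.56 ± 0.05, adjusted p = 1.64e-06), whereas the difference with OA was -0.07 on the log2 scale (95% interval -0.19 to 0.04, adjusted p = 0.513), and the interaction was 0.49 ± 0.08 (adjusted p = 0.000344). OA lowered Abcg2 slightly without BBR (log2 -0.18 ± 0.06, adjusted p = 0.0166) and raised it with BBR (log2 0.30 ± 0.05, adjusted p = 0.000439). The small fall did not pass without Con replicate 1, Con replicate 3 or ConOA replicate 2 (log2 -0.17 to -0.14, adjusted p 0.053 to 0.0926).

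The P-glycoprotein genes Abcb1a and Abcb1b, broad drug exporters, passed in the same directions as Abcb11. Abcb1b lay at 64.0, 54.9 and 58.4 CPM in Con, 106, 88.0 and 84.6 CPM in ConOA, 48.7, 44.5 and 44.3 CPM in BBR, and 97.2, 83.1 and 75.9 CPM in BBROA. OA raised it 1.57-fold without BBR (log2 fold change 0.66 ± 0.08, adjusted p = 1.39e-05) and 1.86-fold with BBR (log2 0.89 ± 0.08, adjusted p = 5.75e-07), and BBR alone lowered it (log2 -0.35 ± 0.06, adjusted p = 0.000518). Abcb1a was lower, at 16.03, 17.6 and 15.96 CPM in Con, 25.1, 21.03 and 19.3 CPM in ConOA, 14.99, 13.1 and 11.8 CPM in BBR, and 21.7, 18.2 and 18.7 CPM in BBROA. Its OA log2 fold changes were 0.40 ± 0.09 (adjusted p = 0.00325) and 0.55 ± 0.10 (adjusted p = 0.000543). The fall of Abcb1a with BBR alone (log2 -0.30 ± 0.09, adjusted p = 0.0246) did not pass without Con replicate 2, BBR replicate 2 or BBR replicate 3 (log2 -0.29 to -0.22, adjusted p 0.0665 to 0.126), nor with DESeq2.

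Abcb1a, Abcb1b and Abcb4 lie next to each other on the plus strand at chr5:8660077-8959231 (GRCm38, GENCODE), with no other protein-coding gene between them. The coding sequences of Abcb1a and Abcb1b were 88.2% identical over 3816 aligned bases, and 15.5% of 50-base windows of Abcb1a occurred unchanged in Abcb1b. Abcb4 was 76.3% identical to Abcb1a. The deposited counts of Abcb1a and Abcb1b were fractional in all 12 libraries and those of Abcb4 in 4, so reads that match several copies may be divided between them and the separate values are uncertain to that extent. In this run of neighbours, OA raised Abcb1a and Abcb1b and lowered Abcb4.

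Abcg5 and Abcg8, which form a dimer that secretes cholesterol into bile, were low and passed in no comparison. Abcg5 lay at 1.75, 1.95 and 1.39 CPM in Con, 1.19, 0.813 and 1.38 CPM in ConOA, 1.34, 0.705 and 1.34 CPM in BBR, and 1.06, 1.005 and 1.49 CPM in BBROA. Abcg8 lay at 2.86, 1.90 and 2.15 CPM in Con, 1.42, 1.63 and 1.58 CPM in ConOA, 1.11, 1.35 and 1.99 CPM in BBR, and 2.03, 1.64 and 1.55 CPM in BBROA. The Con libraries of both genes lay above the ConOA libraries without overlap. For Abcg5 the lowest Con library (1.394 CPM) and the highest ConOA library (1.379 CPM) were closer than the CPM of 1 count. At this depth the log2 differences in ConOA against Con were -0.57 for each gene, with 95% intervals of -1.15 to 0.0054 for Abcg5 (adjusted p = 0.102) and -1.05 to -0.08 for Abcg8 (adjusted p = 0.059). The genes overlap by 6710 bases on opposite strands of chromosome 17, and the use of strand in counting is not given in the sources used here, so reads from the overlap cannot be told apart.

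**Figure D2:**
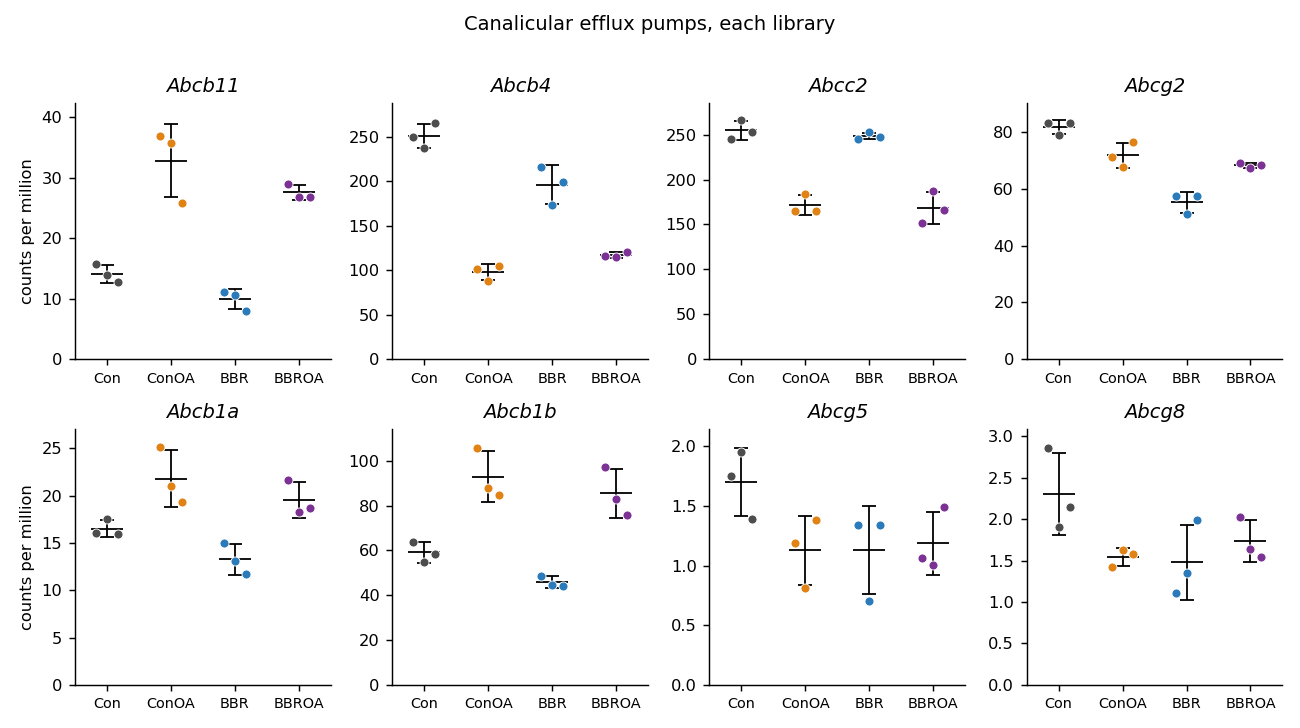
TMM-scaled CPM of the 8 canalicular efflux pumps (panels, vertical axes from 0) in the Con, ConOA, BBR and BBROA libraries. Points are libraries, and black bars are the mean ± SD of 3. Abcb11 sits at 25.8 CPM or more in every library with OA and at 15.7 CPM or less without OA, while Abcb4 sits at 121 CPM or less with OA and at 173 CPM or more without.

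Family C members other than Abcc2 include the basolateral exporters. Of 7 members, all tested, 4 fell and 1 rose in each OA comparison (Abcc3, Abcc4, Abcc5 and Abcc12 lower, Abcc6 higher; the fall of Abcc5 without BBR did not pass with DESeq2), 2 fell with BBR alone (Abcc4 and Abcc12), and 0 of 7 passed in BBROA against ConOA with edgeR, 0 also at an unadjusted p under 0.05 and 0 with DESeq2. The remaining members, Abcc1 at 33.2 to 45.1 CPM and Abcc10 at 5.25 to 7.44 CPM, passed in no comparison. Abcc3 lay at 566, 597 and 563 CPM in Con, 431, 447 and 411 CPM in ConOA, 598, 616 and 618 CPM in BBR, and 441, 460 and 435 CPM in BBROA. OA lowered it in both backgrounds, by log2 fold changes of -0.42 ± 0.05 (adjusted p = 1.56e-05) and -0.46 ± 0.04 (adjusted p = 8.55e-07). Its difference in BBR against Con was 0.09 on the log2 scale (95% interval -0.0047 to 0.19, adjusted p = 0.15).

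Abcc4, which exports bile acids and cyclic nucleotides to blood, lay at 28.6, 31.7 and 28.9 CPM in Con, 15.8, 18.9 and 15.9 CPM in ConOA, 26.0, 23.4 and 25.5 CPM in BBR, and 10.9, 16.7 and 14.6 CPM in BBROA. OA lowered it 1.76-fold without BBR (log2 fold change -0.81 ± 0.08, adjusted p = 2.49e-06) and 1.79-fold with BBR (log2 -0.84 ± 0.11, adjusted p = 4.81e-05). The fall with BBR alone (log2 -0.24 ± 0.07, adjusted p = 0.0152) did not pass without Con replicate 2 or BBR replicate 2 (log2 -0.20 and -0.19, adjusted p 0.0675 to 0.0795), nor with DESeq2 or in a fit of all 12 libraries. Abcc12, a family C member without an established substrate, fell more than 1.5-fold in 3 comparisons. It lay at 19.2, 18.6 and 20.6 CPM in Con, 3.80, 5.85 and 5.41 CPM in ConOA, 10.5, 10.7 and 10.2 CPM in BBR, and 3.85, 4.65 and 4.05 CPM in BBROA. OA lowered Abcc12 3.85-fold without BBR (log2 -1.94 ± 0.12, adjusted p = 2.47e-08) and 2.5-fold with BBR (log2 -1.32 ± 0.12, adjusted p = 1.03e-06), and BBR alone lowered it 1.85-fold (log2 -0.89 ± 0.08, adjusted p = 8.27e-07).

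Abcc6, which mediates the release of ATP from hepatocytes and so the supply of pyrophosphate, rose with OA. It lay at 10.5, 10.9 and 9.88 CPM in Con, 15.1, 16.04 and 13.6 CPM in ConOA, 10.7, 9.29 and 8.92 CPM in BBR, and 14.8, 16.9 and 17.3 CPM in BBROA. The OA groups did not overlap with the groups without OA. The log2 fold changes were 0.52 ± 0.09 (adjusted p = 0.000396) and 0.74 ± 0.10 (adjusted p = 3.97e-05). Of the sulfonylurea receptors, subunits of potassium channels in other tissues, Abcc9 lay at 0.635 to 1.52 CPM and passed in no comparison, and Abcc8 was below the filter.

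Among the sterol and phospholipid transporters, 5 of 6 members were tested. OA without BBR lowered 4 of them (Abca1, Abca2, Abca3 and Abcg1), whereas OA with BBR lowered Abca3 alone (log2 fold change -0.19 ± 0.06, adjusted p = 0.0151). That fall did not pass without BBR replicate 1 or BBROA replicate 1 or 2 (log2 -0.18 to -0.15, adjusted p 0.0524 to 0.0688). BBR alone lowered Abca1 and Abca2, and BBR with OA raised Abca2. Abca7, a phospholipid transporter at 11.7 to 17.4 CPM, passed in none, and Abcg4 was below the filter. Abca1, which loads cholesterol and phospholipid onto apolipoprotein A-I, lay at 159, 150 and 142 CPM in Con, 125, 113 and 99.5 CPM in ConOA, 127, 101 and 125 CPM in BBR, and 124, 111 and 108 CPM in BBROA. The Con libraries were the highest of all 12, and the other groups overlapped each other. OA lowered it without BBR (log2 fold change -0.41 ± 0.07, adjusted p = 0.000305) and BBR lowered it without OA (log2 -0.34 ± 0.07, adjusted p = 0.00148). With the other agent present the differences were -0.05 for OA (95% interval -0.21 to 0.11) and 0.02 for BBR (95% interval -0.14 to 0.18).

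Abca2, an endosomal and lysosomal lipid transporter, lay at 49.7, 51.6 and 47.3 CPM in Con, 36.2, 32.1 and 28.1 CPM in ConOA, 45.6, 36.6 and 42.9 CPM in BBR, and 38.4, 39.1 and 41.4 CPM in BBROA. OA lowered it without BBR (log2 fold change -0.62 ± 0.08, adjusted p = 2.13e-05). BBR lowered it without OA (log2 -0.23 ± 0.07, adjusted p = 0.02) and raised it with OA (log2 0.30 ± 0.08, adjusted p = 0.0468), and the interaction was 0.55 ± 0.12 (adjusted p = 0.00424). The fall did not pass without Con replicate 1, Con replicate 2 or BBR replicate 2 (log2 -0.23 to -0.16, adjusted p 0.0518 to 0.103). The rise did not pass without ConOA replicate 2 or 3 or any BBROA library (log2 0.22 to 0.32, adjusted p 0.0774 to 0.182). Abcg1, which exports cholesterol to lipoprotein particles, was scarce, at 1.40, 1.95 and 1.65 CPM in Con, 1.08, 0.921 and 0.919 CPM in ConOA, 1.71, 1.86 and 1.07 CPM in BBR, and 1.32, 1.11 and 0.893 CPM in BBROA. Its fall with OA (log2 -0.77 ± 0.26, adjusted p = 0.0255) did not pass without Con replicate 2 or 3 or ConOA replicate 2 or 3 (log2 -0.78 to -0.65, adjusted p 0.0586 to 0.106), nor with DESeq2.

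Family D holds the peroxisomal transporters. BBR alone changed 0 of 4 with edgeR, 0 at an unadjusted p under 0.05 and 0 with DESeq2, BBR with OA raised Abcd3, and OA without BBR lowered Abcd3. Abcd4, a lysosomal cobalamin transporter at 12.6 to 16.1 CPM, passed in no comparison. Abcd3, the most abundant, which imports branched and long-chain acyl-CoA and bile acid intermediates, lay at 111, 105 and 103 CPM in Con, 94.7, 90.7 and 93.4 CPM in ConOA, 124, 95.4 and 104 CPM in BBR, and 127, 123 and 120 CPM in BBROA. OA lowered it slightly without BBR (log2 fold change -0.19 ± 0.05, adjusted p = 0.0079). BBR with OA raised it 1.33-fold (log2 0.41 ± 0.05, adjusted p = 0.000175), the only one of the 5 rises in that comparison that passed under every alternative tried. Without OA the BBR libraries of Abcd3 spread across the Con libraries, and the difference was 0.04 (95% interval -0.11 to 0.19). The interaction was 0.38 ± 0.10 (adjusted p = 0.0129), and 0.34 (adjusted p = 0.0556) without ConOA replicate 2.

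Abcd2, a peroxisomal acyl-CoA importer, was near the limit of detection, with 13, 17 and 9 counts in Con, 2, 2 and 1 in ConOA, 13, 12 and 10 in BBR, and 3, 5 and 3 in BBROA. It passed the filter only through the groups without OA, so these counts are given as a description and no test value is quoted. Abcd2 remains among the members tested in BBR against Con, BBROA against BBR and the interaction. It is also among the 20 that passed in BBROA against BBR, a call that a gene high in BBR brings in by its own filter.

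**Figure D3:**
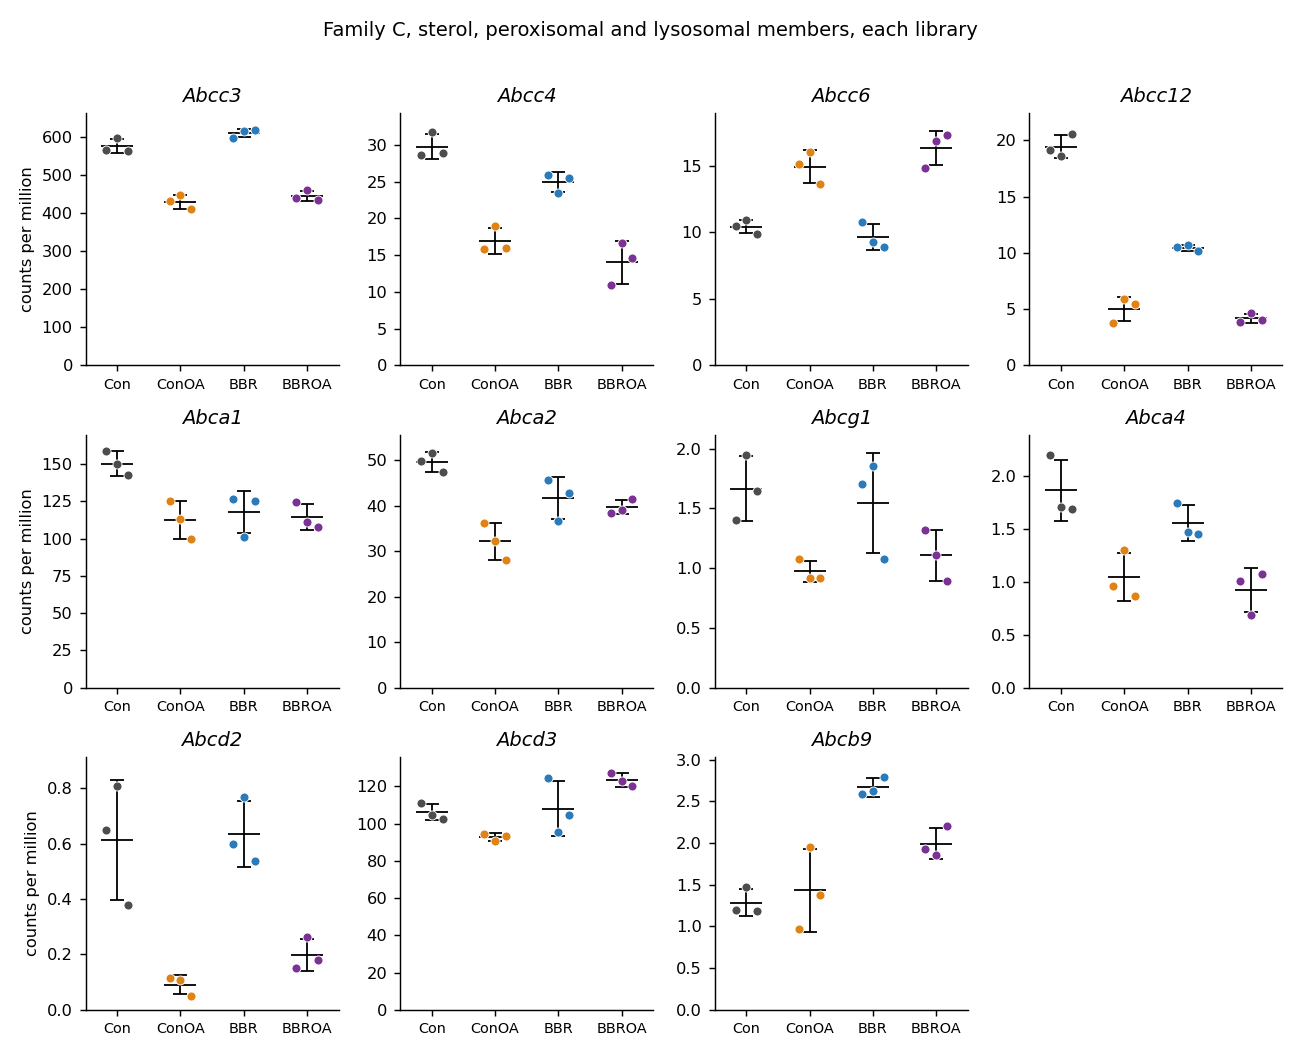
TMM-scaled CPM of 11 members, among them family C, sterol, peroxisomal and lysosomal transporters (panels, vertical axes from 0) in the 4 groups. Points are libraries, and black bars are the mean ± SD of 3. Abcc12 falls from 18.6 CPM or more in Con to 5.85 CPM or less in both OA groups, and Abcd3 is highest in BBROA apart from 1 BBR library at 124 CPM.

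The Abca6 cluster holds 5 neighbouring genes on the minus strand of chromosome 11, at chr11:109932190-110337716 (GRCm38, GENCODE), in the order Abca8b, Abca8a, Abca9, Abca6 and Abca5. The run spans 405527 bases with no other protein-coding gene inside, and gaps between neighbours are 4770 to 29788 bases. The genes encode full-length family A transporters, some of which have been linked to cholesterol handling. Coding sequences of Abca8a and Abca8b were 74.8% identical, and other pairs 60.6% to 71.1%. Only 1.89% of 50-base windows of Abca8a occurred in Abca8b, and no count in the cluster was fractional. The 250 bases upstream of Abca8a (chr11:110095938-110096187) and Abca8b (chr11:109995846-109996095), both on the minus strand of GRCm38.p6 from RefSeq, are shown because these adjacent copies carry the lowest and an intermediate OA fold change of the cluster. Neither holds the hexamer AGGTCA, so no base is in capitals.
Abca8a: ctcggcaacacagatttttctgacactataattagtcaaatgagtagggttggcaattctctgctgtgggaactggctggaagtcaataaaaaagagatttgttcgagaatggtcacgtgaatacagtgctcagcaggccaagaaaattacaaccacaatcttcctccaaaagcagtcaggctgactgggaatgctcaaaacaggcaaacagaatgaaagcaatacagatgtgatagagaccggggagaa
Abca8b: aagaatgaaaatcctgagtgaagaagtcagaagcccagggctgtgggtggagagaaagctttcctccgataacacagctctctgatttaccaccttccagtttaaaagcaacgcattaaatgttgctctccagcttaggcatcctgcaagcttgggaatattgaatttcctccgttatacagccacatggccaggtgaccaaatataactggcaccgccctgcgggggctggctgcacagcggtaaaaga

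Neighbours in the cluster moved in different directions. Of 4 tested members, OA lowered Abca5, Abca8a and Abca8b without BBR, and with BBR it lowered Abca5 and Abca8a and raised Abca6. BBR alone lowered Abca6, Abca8a and Abca8b and raised Abca5, and BBR with OA raised Abca5 and Abca6. Abca8a lay at 6.71, 6.71 and 8.49 CPM in Con, 1.64, 1.30 and 1.43 CPM in ConOA, 4.06, 3.07 and 3.38 CPM in BBR, and 1.47, 1.85 and 1.61 CPM in BBROA. The Con libraries lay above BBR, and BBR above both OA groups. OA lowered Abca8a 5.0-fold without BBR (log2 fold change -2.32 ± 0.18, adjusted p = 1.56e-07), by point estimate the largest among the tested members in the 4 comparisons, and 2.15-fold with BBR (log2 -1.11 ± 0.20, adjusted p = 0.000602). BBR alone lowered it 2.06-fold (log2 -1.04 ± 0.15, adjusted p = 8.79e-05), while with OA the difference was 0.17 (95% interval -0.34 to 0.68).

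Abca8b lay at 28.6, 38.3 and 34.2 CPM in Con, 24.8, 24.1 and 25.4 CPM in ConOA, 24.4, 22.9 and 22.2 CPM in BBR, and 24.1, 26.6 and 27.7 CPM in BBROA. The 3 treated groups lay together below Con. OA lowered it without BBR (log2 fold change -0.44 ± 0.09, adjusted p = 0.0013), and BBR lowered it without OA (log2 -0.53 ± 0.09, adjusted p = 0.000302). Abca6 lay at 91.5, 97.6 and 98.6 CPM in Con, 103, 102 and 99.7 CPM in ConOA, 81.2, 71.5 and 84.1 CPM in BBR, and 112, 126 and 118 CPM in BBROA. It was lowest in BBR and highest in BBROA, with no overlap between any groups. BBR lowered Abca6 without OA (log2 -0.27 ± 0.06, adjusted p = 0.002) and raised it with OA (log2 0.22 ± 0.05, adjusted p = 0.0245), and OA raised it with BBR 1.5-fold (log2 0.58 ± 0.06, adjusted p = 2.87e-06). The rise with BBR in OA did not pass without ConOA replicate 2, BBROA replicate 2 or BBROA replicate 3 (log2 0.18 to 0.23, adjusted p 0.0883 to 0.138).

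Abca5, a lysosomal member linked to cholesterol export, showed the same direction of BBR effect in both backgrounds, alone among the members that passed in both. It lay at 54.0, 50.5 and 49.6 CPM in Con, 36.9, 38.7 and 35.4 CPM in ConOA, 60.7, 60.6 and 59.7 CPM in BBR, and 46.5, 46.5 and 43.2 CPM in BBROA. All 4 groups were separate. BBR raised it by 0.24 ± 0.05 on the log2 scale (adjusted p = 0.00259) in the absence of OA and by 0.30 ± 0.06 (adjusted p = 0.0129) in its presence, and OA lowered it by -0.47 ± 0.06 (adjusted p = 2.39e-05) and -0.41 ± 0.05 (adjusted p = 1.65e-05). The rise with OA did not pass without BBROA replicate 1 or 2 (log2 0.28, adjusted p 0.0504 to 0.076). Abca9 was below the filter, at 0.380 to 0.601 CPM in Con, 0.0542 to 0.51 CPM in ConOA, 0.107 to 0.448 CPM in BBR and 0.417 to 0.456 CPM in BBROA.

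**Figure D4:**
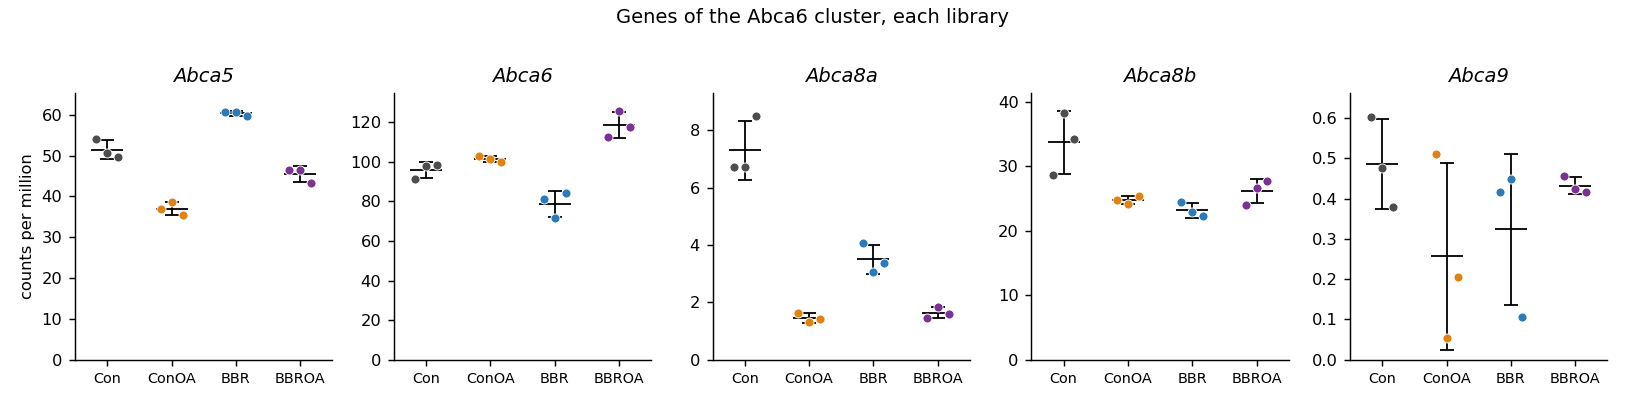
TMM-scaled CPM of the 5 genes of the Abca6 cluster (panels, vertical axes from 0) in the 4 groups. Points are libraries, and black bars are the mean ± SD of 3. Abca8a drops from 6.71 CPM or more in Con to 1.85 CPM or less in both OA groups, whereas Abca6 is lowest in BBR and highest in BBROA.

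The intracellular transporters of family B act in mitochondria and lysosomes. Of 5 members, BBR alone raised Abcb9 and lowered Abcb8, OA raised Abcb10 without BBR and Abcb8 with BBR, and 0 of 5 passed in BBROA against ConOA with edgeR (1 at an unadjusted p under 0.05, 0 with DESeq2). Abcb9, a lysosomal peptide transporter, lay at 1.202, 1.47 and 1.18 CPM in Con, 0.964, 1.95 and 1.38 CPM in ConOA, 2.58, 2.63 and 2.79 CPM in BBR, and 1.92, 1.85 and 2.20 CPM in BBROA. The BBR libraries were the highest. BBR raised it 2.08-fold without OA (log2 fold change 1.06 ± 0.22, adjusted p = 0.0016), and with OA the difference was 0.47 (95% interval -0.10 to 1.03, adjusted p = 0.374). Abcb8, a mitochondrial member, fell with BBR alone (log2 -0.29 ± 0.07, adjusted p = 0.0042). The OA rises of Abcb10, which takes part in haem synthesis, and Abcb8 were small (log2 0.22 ± 0.07 and 0.19 ± 0.07, adjusted p = 0.0204 and 0.0369). The Abcb10 rise did not pass without Con replicate 2 or 3 or ConOA replicate 2 (log2 0.19 to 0.22, adjusted p 0.0545 to 0.083), and the Abcb8 rise without BBR replicate 2 or 3 or BBROA replicate 2 or 3 (log2 0.15 to 0.21, adjusted p 0.0542 to 0.134), and neither passed with DESeq2 or under upper quartile scaling. Abcb6, at 24.3 to 34.4 CPM, passed in no comparison.

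The 4 ABC proteins of translation were tested in every comparison. OA raised Abce1 and Abcf2 in both backgrounds, and 0 of the 4 passed in either BBR comparison with edgeR or DESeq2 (1 at an unadjusted p under 0.05 without OA, 0 with OA). Abce1 lay at 198, 194 and 209 CPM in Con and 246, 258 and 250 CPM in ConOA (log2 fold change 0.33 ± 0.05, adjusted p = 6.96e-05), and its log2 fold change in BBROA against BBR was 0.22 ± 0.04 (adjusted p = 0.000843). For Abcf2 the log2 fold changes were 0.20 ± 0.05 (adjusted p = 0.0035) and 0.19 ± 0.05 (adjusted p = 0.0046). Abcf1 at 135 to 151 CPM and Abcf3 at 53.5 to 63.4 CPM passed in no comparison. Among the remaining 9 members only Abca4, the retinoid flippase of photoreceptors, was tested. It lay at 2.20, 1.71 and 1.69 CPM in Con, 0.964, 1.30 and 0.868 CPM in ConOA, 1.75, 1.47 and 1.45 CPM in BBR, and 1.01, 0.688 and 1.07 CPM in BBROA. OA lowered it by log2 fold changes of -0.83 ± 0.26 (adjusted p = 0.0188) and -0.77 ± 0.27 (adjusted p = 0.037). The first did not pass without Con replicate 1 or ConOA replicate 1 or 3 (log2 -0.78 to -0.70, adjusted p 0.0572 to 0.0754), the other without any 1 of its 6 libraries (log2 -0.88 to -0.59, adjusted p 0.0538 to 0.152) or without the filter on low counts, and neither with DESeq2.

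Whether OA altered the response to BBR was asked with the interaction term over all 12 libraries. It passed for 11 of 39 members (28.2%), all 11 positive, beside 12.2% of all genes, 6.87% positive and 5.31% negative. A positive value means that the log2 fold change with BBR was higher in the presence of OA than in its absence. The 11 were the canalicular pumps Abcb4 and Abcg2, the lipid transporters Abca1, Abca2 and Abca3, the cluster members Abca6, Abca8a and Abca8b, and Abcb8, Abcc12 and Abcd3. For Abca8a the interaction was 1.22 ± 0.27 (adjusted p = 0.00559), for Abca8b 0.61 ± 0.12 (adjusted p = 0.00305) and for Abca6 0.50 ± 0.08 (adjusted p = 0.000358). In 3 of the 11, Abca2, Abca6 and Abcb4, the BBR difference passed as a fall without OA and as a rise with OA. Abcb11 and Abcb1b, which fell with BBR alone, had interactions of 0.26 (95% interval -0.12 to 0.64) and 0.25 (95% interval -0.01 to 0.51), neither of which passed. The interactions of Abca1 (0.38), Abca3 (0.34), Abcb8 (0.34), Abcc12 (0.63) and Abcd3 (0.38) did not pass without some single libraries. For Abca1 these were Con replicates 1 and 2, ConOA replicates 2 and 3, BBR replicate 2 and each BBROA library (0.28 to 0.40, adjusted p 0.0567 to 0.142), and it also missed the threshold under RLE scaling (0.36, adjusted p = 0.0536). For Abca3 they were Con replicate 1, ConOA replicate 2, BBR replicate 2 and BBROA replicate 3 (0.28 to 0.32, adjusted p 0.0516 to 0.083). For Abcb8 they were Con replicate 2, ConOA replicate 3, BBR replicates 2 and 3 and BBROA replicate 3 (0.28 to 0.33, adjusted p 0.0557 to 0.0953), and it also missed the threshold with DESeq2 (0.32, adjusted p = 0.061). For Abcc12 they were Con replicate 3, ConOA replicate 1, BBR replicate 3 and BBROA replicates 2 and 3 (0.47 to 0.63, adjusted p 0.053 to 0.102). For Abcd3 it was ConOA replicate 2 alone (0.34, adjusted p = 0.0556). The count of 11 fell to 7 without BBROA replicate 3.

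**Figure D5:**
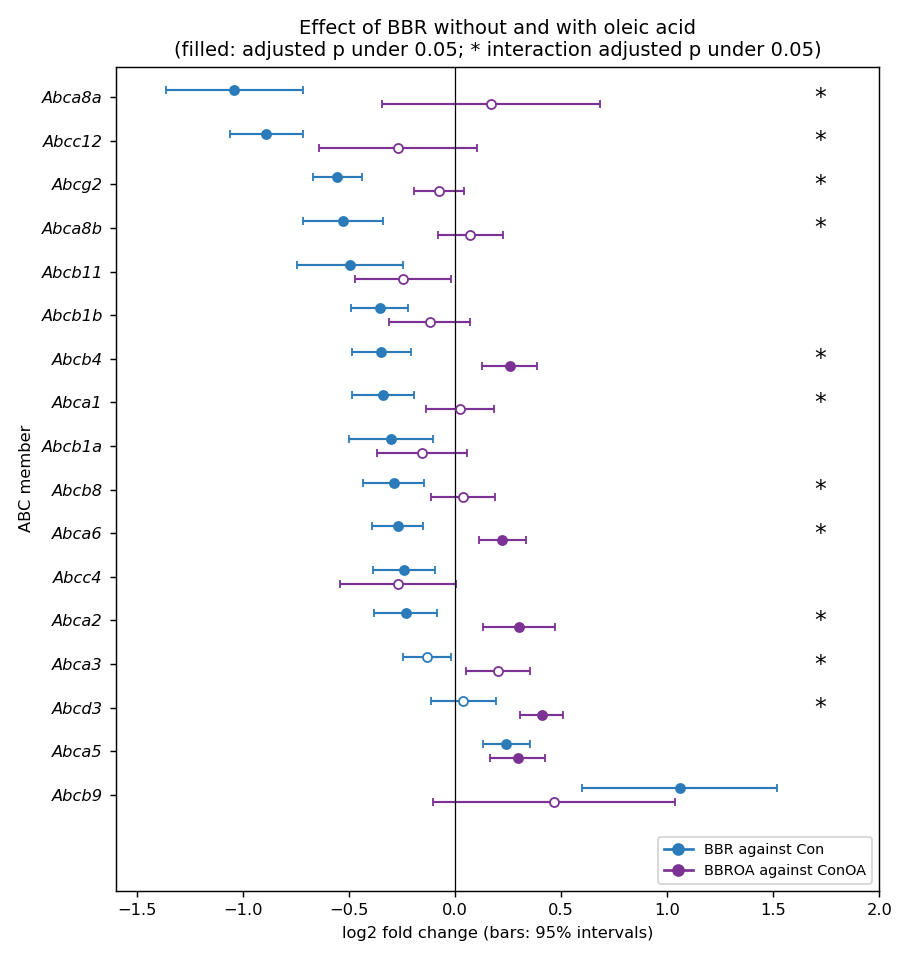
Log2 fold change (horizontal axis) of the 17 members that passed in a BBR comparison or the interaction (vertical axis), for BBR against Con (blue) and BBROA against ConOA (purple). Bars are 95% intervals, filled points passed an adjusted p of 0.05, and asterisks mark the 11 members whose interaction passed. In those 11, the purple point lies to the right of the blue point.

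Receptors known to regulate ABC genes were listed beside the members, as were their partner transporters. Of 15 receptors and factors, BBR alone lowered 7 and raised 1 of 15 tested, BBR with OA changed 0 of 14 in edgeR's test (6 at an unadjusted p under 0.05), OA lowered 6 and raised 3 of 15 without BBR, and with BBR it lowered 3 and raised 4 of 14. These are 53.3%, 0%, 60% and 50%, beside 27.7%, 4.59%, 42.8% and 38.9% of all genes, in that order. Nr1h4 (FXR), the activator of Abcb11 and Abcb4, lay at 15.3, 15.7 and 15.5 CPM in Con, 9.19, 8.62 and 12.5 CPM in ConOA, 8.81, 7.43 and 7.68 CPM in BBR, and 10.4, 11.3 and 10.7 CPM in BBROA. It fell with BBR alone (log2 fold change -0.94 ± 0.09, adjusted p = 1.82e-06) and with OA alone (log2 -0.61 ± 0.12, adjusted p = 0.000785). It passed as a rise with OA on top of BBR, and its interaction passed as positive. Abcb11 and Abcb4 both fell with BBR alone, whereas in each OA comparison Abcb11 rose and Abcb4 fell. The part of Nr1h4 in these differences was not tested. The FXR target Nr0b2, a repressor at 0.269 to 2.14 CPM, fell with BBR alone (log2 -2.12 ± 0.31, adjusted p = 7.55e-05) and OA alone (log2 -1.25 ± 0.25, adjusted p = 0.00108). Nr1i2, the xenobiotic receptor PXR, fell with BBR alone (log2 -0.71 ± 0.09, adjusted p = 1.44e-05) and OA alone (log2 -0.75 ± 0.09, adjusted p = 1.67e-05).

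The PPAR genes moved with OA in opposite directions. Ppara rose in both OA comparisons (log2 fold change 0.62 ± 0.12, adjusted p = 0.000872, and 0.43 ± 0.16, adjusted p = 0.0447), and Pparg fell in both OA comparisons (log2 -0.62 ± 0.10, adjusted p = 0.000129, and -0.94 ± 0.11, adjusted p = 1.53e-05). Of 13 hepatobiliary uptake, export and flippase genes, 10 were tested. BBR alone lowered 3 and raised 1, OA lowered 5 without BBR and lowered 3 and raised 1 with BBR, and 0 of 10 passed in BBROA against ConOA (1 at an unadjusted p under 0.05). These are 40%, 50%, 40% and 0%, beside 27.7%, 42.8%, 38.9% and 4.59% of all genes, in that order, so the OA shares lay near those of all genes. Slco1b2, an uptake carrier for bile acids and bilirubin, was scarce at 0.907 to 3.19 CPM and fell with BBR alone (log2 -0.90 ± 0.25, adjusted p = 0.0119) and OA alone (log2 -1.28 ± 0.25, adjusted p = 0.000789). Of 8 cholesterol efflux and lysosomal cholesterol genes, 2 rose and 2 fell in BBR against Con and in each OA comparison, and 1 rose in BBROA against ConOA. The shares were 50% in BBR against Con and in each OA comparison and 12.5% in BBROA against ConOA. All genes stood at 27.7% in BBR against Con, 42.8% and 38.9% in the OA comparisons, and 4.59% in BBROA against ConOA. Apoa1, the acceptor for Abca1, rose with OA (log2 0.89 ± 0.05, adjusted p = 8.95e-09, and 0.80 ± 0.07, adjusted p = 4.21e-07). Of 3 ABC proteins that carry other symbols, the peptide transporter subunits Tap1 and Tap2 fell in BBR against Con and in ConOA against Con, and Cftr was below the filter. In BBROA against ConOA and BBROA against BBR, 0 of these 2 passed, also at an unadjusted p under 0.05. In the interaction 0 of 2 passed, with 1 at an unadjusted p under 0.05.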

How the data were processed

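RNA from 12 libraries of primary mouse hepatocytes, 3 per group, had been extracted with Trizol, enriched with oligo(dT), converted to cDNA from random primers and read on an Illumina HiSeq instrument. The authors deposited, for each library, an estimated count and an FPKM value per gene. The build mm10 is named in the submitters' processing notes, and the aligner, the quantifier and the use of strand are not given in the sources used here. Estimated counts were rounded to whole numbers for all tests, and the deposited FPKM values served only to compare levels between genes.

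Groups and replicate numbers came from the labels. Each pair of groups was tested on its 6 libraries with edgeR 4.0.16 in R 4.3.3 (quasi-likelihood F test, two-sided, TMM scaling, filterByExpr with a minimum count of 10, limma 3.58.1), with Benjamini-Hochberg adjustment over all genes tested and a threshold of 0.05. The interaction was fitted on all 12 libraries. SE was taken from the fold change and the F statistic, and intervals are at 95%. Totals of 15485508 to 23668379 counts set the precision, so 1 count was 0.0423 to 0.0646 CPM. The test was checked on simulated counts with the same dispersion for every gene and no replicate effect. That check therefore does not cover the spread of these libraries, and its pass condition left out the interaction.

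The members and lists were chosen with earlier results of these data known. Values in every library were given for a set of 20 members and for each further member past the threshold with a change of at least 1.5-fold. Abca3, Abcb8, Abcb10, Abcc5, Abce1 and Abcf2 were named outside this rule, after their values were seen. Alternatives were RLE and upper quartile scaling, no filter on low counts, the replicate number as a block, all 12 libraries in 1 fit, DESeq2 1.42.0, and each library left out. Promoter sequences came from RefSeq and gene positions and coding sequences from GENCODE mouse M21. Protein sequences were not used here, and identity was computed on coding sequences with Biopython 1.88. Results for some members are not reported here by name, although they remain in the counts.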

Additional observations from a re-analysis of the deposited data

Results flagged for a closer look

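In 11 members the BBR effect with OA differed from that without OA by the interaction test. Of these, 6 passed under every alternative tried, and all 11 differences were positive on the log2 scale. In the Abca6 cluster they were 1.22 for Abca8a, 0.61 for Abca8b and 0.50 for Abca6. In the canalicular pumps they were 0.61 for Abcb4 and 0.49 for Abcg2. In the lipid transporters they were 0.55 for Abca2, 0.38 for Abca1 and 0.34 for Abca3. The remaining values were 0.63 for Abcc12, 0.38 for Abcd3 and 0.34 for Abcb8. The Kupffer cell marker sum was highest in the BBR libraries, although with BBR alone Cd68 rose and Cd5l fell. The cholangiocyte marker sum was highest in Con and was carried by Spp1, while Krt19, Sox9 and Epcam rose with BBR alone. The part of these markers in the 11 differences was not tested.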

How the results depend on the processing

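No member value changed direction past the threshold under the alternatives tried. Of the calls, 12 of 15 in BBR against Con, 1 of 5 in BBROA against ConOA, 18 of 24 in ConOA against Con, 16 of 20 in BBROA against BBR and 6 of 11 in the interaction were kept under all of them (12 settings, 17 for the interaction). The counts without single libraries ranged from 12 to 17, 1 to 6, 21 to 25, 17 to 20 and 7 to 12 in that order, and with DESeq2 they were 13, 5, 20, 17 and 10. Same-numbered libraries correlated between -0.0273 and 0.156 in their deviations from group means, and differently numbered libraries between -0.148 and 0.091. The same-numbered values were positive except for replicate 2 of Con and BBROA (-0.0273) and replicate 3 of ConOA and BBR (-0.00894). They were not above 0.1 in every pair, and the main tests did not pair the libraries by number. These tests therefore do not account for any spread shared by number. Whether the numbers mark a shared preparation was not tested. With the replicate block the counts were 18, 7, 26, 22 and 14. Over all genes the block moved the BBROA against ConOA count from 563 to 1333, the all-library fit gave 753 and no filter gave 844, and the interaction count with the block was 2265 against 1551. The block also moved the count from 3484 to 4154 in BBR against Con, from 5312 to 6628 in ConOA against Con, and from 4826 to 5280 in BBROA against BBR. The cause was not tested. Depth limits members near the floor, such as Abcd2, Abca9, Abcg1 and Abca4.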
